A study of Mus musculus with 12 samples.

Results

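The quantity described here is the genotype difference in mouse embryonic stem cells (mESC) after Rif1 deletion, beyond the difference that the cell lines already had. For each gene it is the difference between genotypes after 4-hydroxytamoxifen (OHT) less the difference between the same lines before OHT, on the log2 scale. It is called the difference of the differences. Where the pairs of lines respond to OHT differently for reasons other than Rif1, that is part of it and cannot be told apart from the deletion. The difference of the differences was computed for every gene that passed a filter on low counts, 17115 of the 24391 gene symbols in the deposited count table. Total RNA of 4 female lines was sequenced, all from crosses of C57BL/6J-129/SvJ with Mus musculus castaneus and all with a tamoxifen-inducible Cre at 1 Rosa26 allele. Lines 5.3 and 5.16 (replicates 1 and 2) were Rif1+/+ Rs26+/CreERT, and lines 15.10 and 16.9 (replicates 3 and 4) were Rif1F/F Rs26+/CreERT, with both Rif1 alleles floxed. Each line gave 1 library before OHT and 1 after 2 days of OHT, so 8 of the 12 libraries of the series enter the contrast, in 4 groups of 2. The medium held serum, LIF and inhibitors of MEK and GSK3. The groups are called WT before, F/F before, WT after and KO after. The wild-type lines carry the Cre and received OHT as well, so OHT and Cre activity are common to both genotypes. The titles of the F/F libraries before OHT carry both "KO" and "WT", and they are taken here as undeleted because they are labelled as before deletion and had no OHT.

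RIF1 is a large chromatin protein that recruits the phosphatase PP1 to late-replicating chromatin, sets the timing of DNA replication and acts with 53BP1 in the repair of double-strand breaks. In embryonic stem cells it has also been linked to heterochromatin, to the silencing of germline and cleavage-stage genes and retroelements, and to X inactivation. Many germline genes are held silent in such cells by DNA methylation, by H3K9 methylation and by a variant Polycomb complex that contains PCGF6, MGA, MAX and E2F6. Xist is the noncoding RNA that coats the X chromosome to be silenced, and Tsix is its antisense repressor.

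Total counts of the 8 libraries ran from 29505686 to 64808897. The mESC markers Pou5f1, Sox2, Nanog and Esrrb each stood above 300 CPM (counts scaled to a common library size) in all 8, whereas of 20 feeder fibroblast markers 11 had counts in all 8 and 9 were at 0 in at least 1, among them Col3a1, Dcn and Fap in 6, 6 and 8. The WT after library of line 5.3 stood apart, with Lars2 taking 0.869% of all its counts, where the other 7 gave at most 0.0863%, and with histone genes at a median of 14.0 CPM, where the others lay between 37.4 and 62.3. All libraries before OHT share a flow cell and all after OHT share another, so OHT and flow cell cannot be told apart within a genotype, but an effect of either that is equal in both genotypes cancels in the contrast. Each genotype rests on 2 lines with 1 library per condition, so p-values measure the spread between libraries. The embryoid body libraries of the series enter that estimate of spread as well. In such bulk samples fewer cells that express a gene and less RNA per cell cannot be told apart.

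The change with OHT differed between the genotypes for 1346 of the 17115 genes (7.86%) at an adjusted p under 0.05 in edgeR's quasi-likelihood test. For 697 genes (4.07%) the change was higher in the floxed lines than in the wild-type lines, and for 649 (3.79%) it was lower. They are called higher and lower below. The differences were larger among genes called higher, with 364 of at least 2-fold, than among genes called lower, with 45. The median over all genes tested was -0.02. In 1345 of the 1346 both floxed lines changed more, or both less, than both wild-type lines, against 52.1% of all genes tested. The same contrast selected these genes, so that count describes the calls and does not support them. With upper-quartile scaling, which moved the median of all genes by 0.06, 870 genes were higher and 357 lower, so the share of calls that were higher went from 51.8% to 70.9%. With the 8 mESC libraries alone in the fit 705 genes were called, and 52% of the 1346 calls were kept. With these also paired by cell line 516 were called, and 37.1% were kept. The fits below that leave out 1 library keep the embryoid body libraries. The number called was 831 without the WT after library of line 5.3 and 2540 without that of line 5.16. Without KO after of line 15.10 or 16.9 it was 604 or 592. Without WT before of line 5.3 it was 510, and without F/F before of line 16.9 it was 633. In all 8 fits that each left out 1 library, 366 genes were called, 231 higher and 135 lower.

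**Figure D1:**
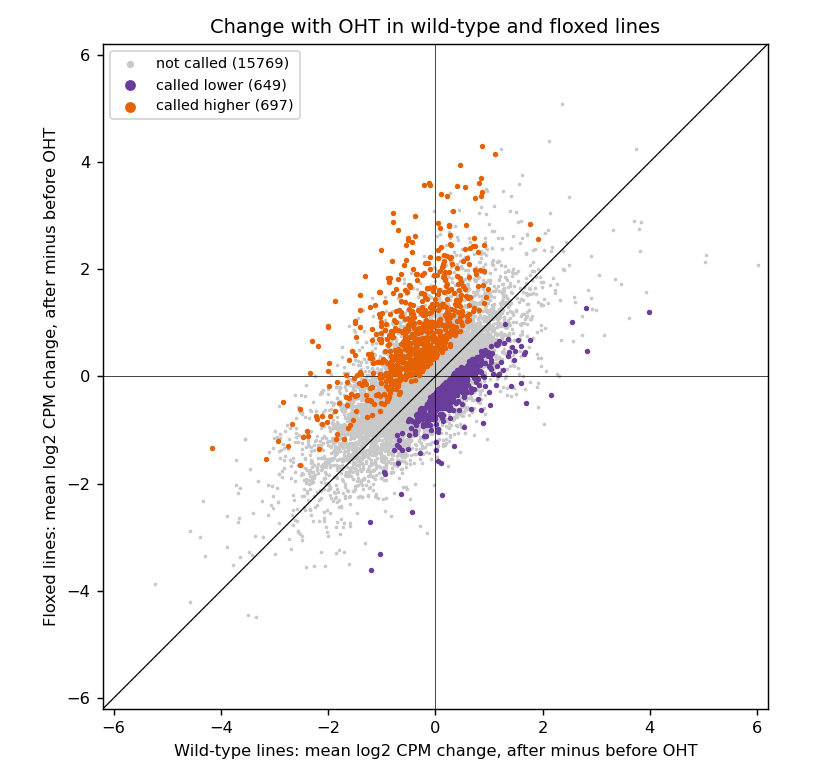
Mean log2 CPM change from before to after OHT in the 2 wild-type lines (x axis) against the 2 floxed lines (y axis), 1 point per gene tested. The 697 genes called higher lie above the diagonal of equal change and reach further from it than the 649 called lower, of which 45 differed by at least 2-fold.

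Both arms of the contrast moved many genes. From before to after OHT 43.7% of genes changed in the floxed lines and 49.1% in the wild-type lines, and the genotypes differed for 37.4% of genes before and 38.4% after OHT. These comparisons use the same libraries as the contrast, so they break each call into its parts and do not support it. Of the 697 genes called higher, 477 rose in the floxed lines and 325 fell in the wild-type lines. Before OHT 401 of the 697 had been lower in the floxed than in the wild-type lines, and after OHT 377 were higher. Of the 649 called lower, 333 fell in the floxed lines and 374 rose in the wild-type lines. Before OHT 401 of the 649 had been higher in the floxed than in the wild-type lines, and after OHT 286 were lower. In 517 of all 1346 calls the change passed the test in the floxed lines alone, in 426 in the wild-type lines alone, in 169 in both with opposite signs and in 228 in both with the same sign. In the remaining 6 neither passed. By point estimates the difference between the genotypes narrowed from before to after OHT in 370 of the calls, widened in 262 and changed sign in 714.

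Rif1 itself was called lower. The wild-type lines held 1537 and 1752 CPM before and 1605 and 1455 CPM after OHT. The floxed lines held 1172 and 1172 CPM before and 702 and 662 CPM after. Both floxed lines stood under both wild-type lines at each time, and the gap was wider after OHT. Their mean was 71.3% of the wild-type mean before and 44.5% after. The difference of the differences was -0.68 ± 0.11 (adjusted p = 9.8e-04), and it was called in all 8 fits without 1 library. Reads over any part of Rif1 enter its count, so a transcript that lacks only the floxed part still adds to it.

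Of 18 measured genes on a list of RIF1 partners and related factors, 5 (27.8%) including Rif1 were called lower and none higher, with a median of -0.03. Over all genes tested 3.79% were lower and 4.07% higher. Fam35a, which encodes a shieldin subunit that acts with 53BP1 and RIF1 in end protection, went from 55.9 and 53.2 CPM in the floxed lines to 38.5 and 32.9, and from 42.9 and 44.2 to 45.5 and 43.0 CPM in the wild-type lines. It was above both wild-type lines before OHT and below both after it, a difference of -0.64 ± 0.11 (adjusted p = 2.6e-03). Blm, a helicase that resolves recombination intermediates, stood at 157 and 161 CPM in KO after and at 244 and 229 CPM in WT after, with a difference of -0.41 ± 0.09 (adjusted p = 8.5e-03), and it lost its call without WT before of line 5.3 at -0.38 (adjusted p = 0.0503). The other 2 were Ticrr and Dbf4, factors of origin firing, at -0.60 and -0.39. Trp53bp1, which encodes 53BP1, and the PP1 catalytic subunit gene Ppp1ca were not called, at 0.00 and -0.02. Rif1 and Fam35a were the members called in all 8 fits, and the count was 2 without WT before of line 5.3 and 3 without WT after of line 5.3, KO after of line 15.10 or F/F before of line 16.9.

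Xist was called lower as well. It rose in the wild-type lines from 17.0 and 21.8 CPM to 35.1 and 42.6 CPM, by 1.01 ± 0.15 (adjusted p = 5.4e-05). In the floxed lines it stood at 35.2 and 27.4 CPM before and 30.5 and 21.4 CPM after, a change of -0.28 ± 0.15 (adjusted p = 0.156). Both floxed lines were above both wild-type lines before OHT and below both after it. The difference of the differences was -1.28 ± 0.22 (adjusted p = 1.8e-03) and was called in all 8 fits. Tsix stood at 4.70 and 5.06 CPM in WT before, 4.54 and 3.26 in WT after, 8.44 and 7.96 in F/F before and 7.04 and 5.42 in KO after, with a difference of -0.08 ± 0.25 (adjusted p = 0.885). The 2 genes overlap on opposite strands, and no source used here says whether counting used strand, so their reads may be mixed. Of 23 measured genes of the X-inactivation centre and its regulators, 1 (4.35%; Zfp42, described below) was higher and 2 (8.70%) lower. Of 19 that escape X inactivation Xist alone (5.26%) was called. Over all genes tested 4.07% were higher and 3.79% lower. Chic1, a neighbour of Xist, fell in both genotypes and further in the floxed lines, from 95.5 and 85.5 to 55.1 and 49.6 CPM, against 54.7 and 58.7 to 46.4 and 46.1 CPM in the wild-type lines. Its difference was -0.50 ± 0.12 (adjusted p = 0.0184). It lost its call without KO after of line 16.9 (adjusted p = 0.106), WT before of line 5.3 (adjusted p = 0.0895) and F/F before of line 15.10 (adjusted p = 0.0532).

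Germline and meiosis genes were the list with the most calls. Of 52 measured members 24 were called higher and 5 lower, 46.2% and 9.62%, against 4.07% and 3.79% of all genes tested. The median difference was 0.68 against -0.02 over all genes. Of the 24, 22 rose in the floxed lines and 6 fell in the wild-type lines, and 20 had been lower in the floxed than in the wild-type lines before OHT. Of all 697 genes called higher 477 rose in the floxed lines, 325 fell in the wild-type lines and 401 had been lower before OHT. Of the 697, 96 were lower and 377 higher than in the wild-type lines after it. After OHT 14 of the 24 were still lower and 5 were higher than in the wild-type lines. The number higher lay between 19 and 26 in the fits without 1 library, and 18 of the 24 were called in all of them. Promoter sequences of 4 genes are shown first, those with the largest differences among the genes named by rule that belong to a list and have an entry.

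Each is the 250 bases before the annotated start, 5′ to 3′ on the gene's strand, from RefSeq (GRCm38.p6), with matches to CACGTG and to TCCCGC or its complement GCGGGA in capitals. CACGTG is the E-box that MAX and MGA can bind, and TCCCGC is an E2F6 motif. These motifs do not overlap. The windows are chrX:37651328-37651577 (minus strand) for Rhox4g, chrX:38120590-38120839 (plus strand) for Rhox13, chr3:40708621-40708870 (plus strand) for Slc25a31 and chr6:18109062-18109311 (minus strand) for Asz1.
Rhox4g: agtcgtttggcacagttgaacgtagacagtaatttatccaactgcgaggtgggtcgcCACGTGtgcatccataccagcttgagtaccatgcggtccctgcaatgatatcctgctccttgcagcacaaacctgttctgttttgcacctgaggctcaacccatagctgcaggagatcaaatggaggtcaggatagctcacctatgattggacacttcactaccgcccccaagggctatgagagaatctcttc
Rhox13: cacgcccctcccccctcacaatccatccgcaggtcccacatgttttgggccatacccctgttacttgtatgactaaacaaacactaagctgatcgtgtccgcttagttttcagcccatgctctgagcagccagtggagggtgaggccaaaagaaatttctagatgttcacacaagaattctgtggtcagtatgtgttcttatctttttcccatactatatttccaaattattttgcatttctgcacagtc
Slc25a31: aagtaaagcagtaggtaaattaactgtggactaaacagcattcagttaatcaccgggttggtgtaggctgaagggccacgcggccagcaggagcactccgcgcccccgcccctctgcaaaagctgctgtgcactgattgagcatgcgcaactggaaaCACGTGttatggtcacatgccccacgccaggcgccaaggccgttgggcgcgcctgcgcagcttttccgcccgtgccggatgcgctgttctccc
Asz1: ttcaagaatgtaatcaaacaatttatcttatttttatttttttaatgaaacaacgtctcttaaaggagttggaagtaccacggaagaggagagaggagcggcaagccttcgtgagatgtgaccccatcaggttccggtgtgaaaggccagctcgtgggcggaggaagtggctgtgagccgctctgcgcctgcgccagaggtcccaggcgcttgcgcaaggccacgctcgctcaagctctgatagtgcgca

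The window of Slc25a31 holds 1 CACGTG, which starts 93 bases before the annotated start, and that of Rhox4g holds 1, which starts 193 bases before it. Those of Rhox13 and Asz1 hold neither motif. They have 18 CpG dinucleotides in Slc25a31, 15 in Asz1, 7 in Rhox4g and 4 in Rhox13, against a median of 14 over all promoters. Among the 12616 tested genes whose symbol has a promoter entry, 8.1% hold CACGTG and 27.9% TCCCGC on either strand in this window. Of 45 germline members with an entry 17 (37.8%) hold CACGTG and 18 (40%) TCCCGC, and of the 20 among them called higher 11 (55%) and 6 (30%) do. Of all genes called higher 12.4% of 518 hold CACGTG, and of all called lower 9.11% of 516. TCCCGC is in 28.6% and 28.3% of them. A match describes the letters and is not a binding site.

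Slc25a31, the ADP/ATP carrier of the testis, stood at 9.97 and 8.77 CPM in WT before, 9.34 and 8.10 in WT after, 0.367 and 0.434 in F/F before and 5.16 and 5.45 in KO after. The floxed lines moved from 4.27% to 60.9% of the wild-type mean, and stayed under both wild-type lines. The difference of the differences was 3.82 ± 0.26 (adjusted p = 3.2e-07). Asz1, which encodes a scaffold of the piRNA pathway, had the same shape. It was at 0.538 and 0.289 CPM in F/F before and 4.90 and 4.44 in KO after, against 12.6 and 11.98 in WT before and 14.0 and 12.5 in WT after, a difference of 3.38 ± 0.25 (adjusted p = 4.8e-07). Dazl, an RNA-binding translational regulator of germ cells, went from 97.0 and 84.9 CPM to 308 and 268 CPM in the floxed lines and from 642 and 682 CPM to 608 and 687 CPM in the wild-type lines. Both floxed lines remained below both wild-type lines, at 13.7% of their mean before and 44.4% after, and the difference was 1.69 ± 0.12 (adjusted p = 3.2e-07).

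The further germline members named next were chosen after their values were seen. Sycp1, the transverse filament of the synaptonemal complex, went from 4.30 and 3.11 CPM to 8.17 and 7.64 CPM in the floxed lines while it was at 70.5 and 73.0 CPM before and 54.7 and 54.8 CPM after in the wild-type lines. It reached 14.4% of the wild-type mean, the smallest share among the 24, with a difference of 1.48 ± 0.15 (adjusted p = 2.0e-05). Sohlh2, a transcription factor of germ cell differentiation, went from 58.5 and 44.1 CPM to 153 and 143 CPM in the floxed lines, against 164 and 143 before and 132 and 132 after in the wild-type lines. Both KO libraries lay above both WT after libraries, a gap that did not pass the test, and the difference of the differences was 1.74 ± 0.14 (adjusted p = 1.1e-06). Syce1, of the synaptonemal central element, was at similar levels in both genotypes before OHT, 9.29 and 9.21 CPM in the floxed and 11.4 and 10.7 CPM in the wild-type lines, and reached 41.4 and 32.1 CPM in KO after against 12.03 and 11.5 CPM in WT after (difference of 1.89). Tdrd1 and Sycp2, of the piRNA pathway and the chromosome axis, differed by 2.45 and 2.33, from levels under 1 CPM in F/F before. Piwil2 and Ddx4, also of the piRNA pathway, differed by 1.00 and 0.91 and stood at 20.0% and 60.1% of the wild-type mean after OHT.

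The 5 germline members called lower went the other way. Tdrd12, a Tudor protein of the piRNA pathway, fell from 77.2 and 78.9 CPM to 45.1 and 45.3 CPM in the floxed lines and stood at 117 and 123 CPM before and 119.7 and 120.3 CPM after in the wild-type lines, a difference of -0.79 ± 0.09 (adjusted p = 5.0e-05). Smc1b, the meiotic cohesin subunit, fell in both genotypes and further in the floxed lines, from 79.7 and 65.8 CPM to 24.1 and 17.2 CPM against 76.998 and 74.5 CPM to 40.1 and 39.2 CPM (difference of -0.89). Hsf2bp, a recombination factor, went from 108 and 118 CPM to 81.3 and 87.7 CPM in the floxed lines and differed by -0.57. These 3 were called in all 8 fits. Hormad1 and Syce2, at -0.56 and -0.38, were called in 3 and 2 of them, and the count of members lower was 3 without KO after of line 16.9 and without WT before of line 5.3.

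**Figure D2:**
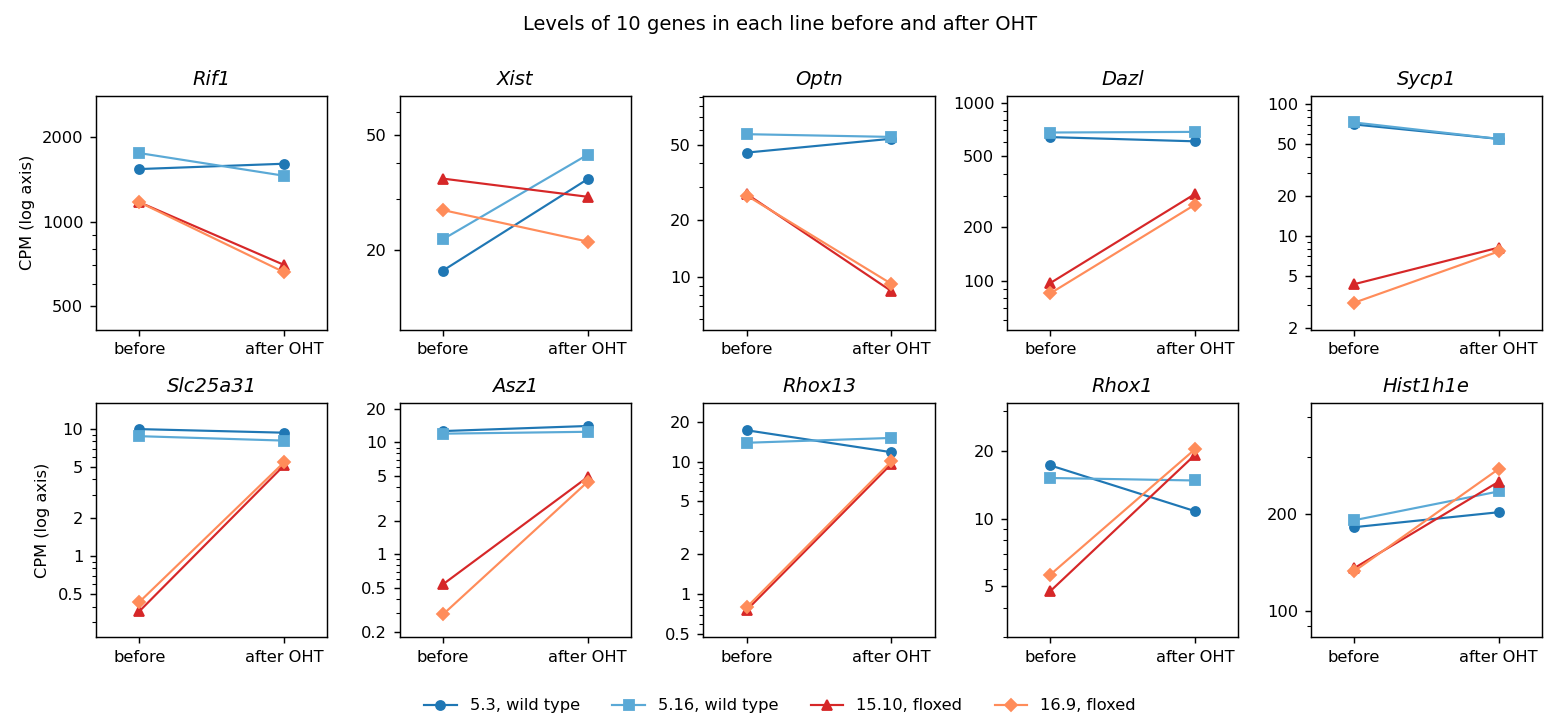
CPM of 10 genes on log axes in each of the 4 lines before and after OHT, with circles and squares for the wild-type lines 5.3 and 5.16 and triangles and diamonds for the floxed lines 15.10 and 16.9. Both floxed lines rise for Dazl, Sycp1, Slc25a31, Asz1, Rhox13, Rhox1 and Hist1h1e and fall for Rif1 and Optn, while Xist rises only in the wild-type lines.

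The Rhox genes, a cluster of reproductive homeobox genes on the X chromosome, were also called higher. Of 29 members with a row of counts, 14 passed the filter on low counts. Of these 8 (57.1%) were higher and none lower, against 4.07% and 3.79% of all genes tested. A gene of low level passes that filter only where some group has reads, so the count is a description and no median is given. The count was 5 without WT before of line 5.3, and 3 with DESeq2 in place of edgeR. Rhox13 stood at 0.758 and 0.796 CPM in F/F before and 9.59 and 10.05 in KO after, against 17.2 and 13.9 in WT before and 11.8 and 15.1 in WT after. It reached 73.2% of the wild-type mean, still under both wild-type lines, with a difference of 3.87 ± 0.27 (adjusted p = 3.2e-07). Rhox1 rose from 4.77 and 5.64 CPM to 19.15 and 20.3 CPM in the floxed lines and passed both wild-type lines, which held 17.2 and 15.1 CPM before and 10.8 and 14.7 CPM after (difference of 2.26). Rhox4g, shown above, had 3 counts in F/F before and 33 in KO after, a ratio of CPM of 14.5 (95% counting interval 4.53 to 73.7), while WT before and WT after had 54 and 49. Its difference was 4.49 ± 0.72 (adjusted p = 1.1e-03). Of the 8 called higher, 6 rose and 1 fell in the floxed lines. Rhox6, also called higher, fell by -0.83 and -0.66 in the floxed lines and by -1.72 and -2.50 in the wild-type lines. It was at 249% of the wild-type mean before OHT. The summed level of the list went from 46.0 and 44.4 CPM to 55.2 and 55.8 CPM in the floxed lines. In the wild-type lines it went from 59.8 and 52.6 CPM to 33.1 and 37.6 CPM. Rhox2, Rhox3 and Rhox4 exist as near-identical copies, so the counts of single copies are uncertain.

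Called genes were unevenly spread over the chromosomes. Of 679 X-linked genes tested 96 (14.1%) were called higher and 18 (2.65%) lower, and the median over all 679 was 0.10, whereas of 16399 autosomal genes 3.65% were called higher and 3.84% lower, and their median was -0.02. Among the autosomes the share higher ran from 1.55% on chromosome 16 to 6.76% on chromosome 3. Of the 96 X-linked genes 81 rose in the floxed lines, 38 fell in the wild-type lines and 75 had been lower in the floxed lines before OHT. Of the 598 autosomal genes called higher the same counts were 393, 287 and 324. The median change of X-linked genes was -0.10 in line 5.3 and -0.08 in line 5.16, against 0.07 in line 15.10 and 0.03 in line 16.9. The number higher was 62 without WT before of line 5.3 and 65 without KO after of line 15.10. Of the 96, 57 were called in all 8 fits.

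**Figure D3:**
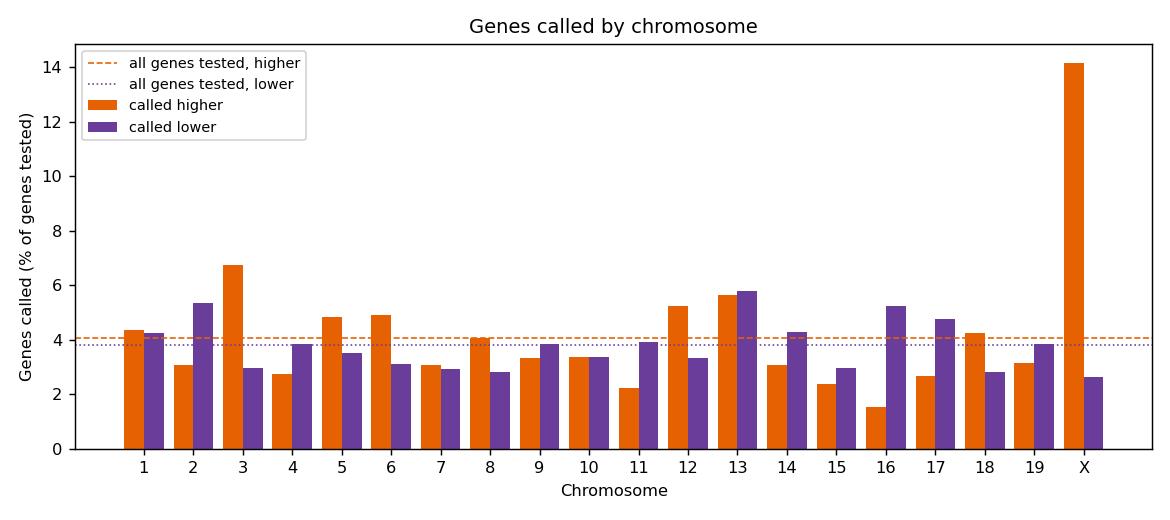
Share of the genes tested on each chromosome that were called higher or lower, in percent, with lines at the shares over all genes tested. The X chromosome has 14.1% of its genes called higher, and each autosome at most 6.76%.

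The X-linked genes described next include several known from testis or germ cells. 4930550L24Rik, singled out after its values were seen because it had the smallest adjusted p of all genes, went from 3.77 and 4.24 CPM to 48.2 and 45.3 CPM in the floxed lines and from 27.3 and 26.5 CPM to 40.5 and 38.5 CPM in the wild-type lines. Its difference was 2.99 ± 0.13 (adjusted p = 3.5e-10). Nxf2, an RNA export factor of germ cells, went from 0.245 and 0.506 CPM to 3.34 and 3.02 CPM in the floxed lines and stood at 13.2 and 9.39 CPM before and 10.9 and 6.61 CPM after in the wild-type lines (difference of 3.43). Tex13 rose from 0.416 and 0.241 CPM to 1.36 and 1.26 CPM in the floxed lines and fell from 1.53 and 1.57 CPM to 0.557 and 0.636 CPM in the wild-type lines, so the order of the genotypes turned over (difference of 3.37). Mageb4, a cancer-testis antigen gene, went from 0.220 and 0.0964 CPM to 3.37 and 2.68 CPM in the floxed lines, above both WT after libraries at 1.62 and 1.33 CPM (difference of 3.82). Sox3, a transcription factor of neural progenitors and of the testis, went from 2.03 and 1.64 CPM to 4.23 and 4.28 CPM in the floxed lines, against 4.70 and 3.99 CPM to 2.34 and 3.28 CPM in the wild-type lines, a difference of 1.85 ± 0.27 (adjusted p = 4.6e-04). Scml2, an X-linked Polycomb protein of the germline, was higher by 0.96 ± 0.21 (adjusted p = 0.0115) but stayed at 33.3% of the wild-type mean, and without KO after of line 15.10 it was 0.74 (adjusted p = 0.0765).

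Among the 15 largest differences in the higher direction with a mean log2 CPM of at least 0 over all 12 libraries, embryoid bodies included, 12 were called in all 8 fits. Fndc3c1, Slc10a6 and Hgf met that level although they were under 1 CPM in each of the 8 mESC libraries. Pdha2, the testis form of the pyruvate dehydrogenase subunit, stood at 0.196 and 0.145 CPM in F/F before, 2.55 and 2.53 in KO after, 0.396 and 0.337 in WT before and 0.590 and 0.424 in WT after, and both KO libraries lay above the other 6. Its difference was 3.40 ± 0.47 (adjusted p = 2.6e-04). Pdlim3, a muscle cytoskeletal protein, differed by 4.72 ± 0.82 (adjusted p = 2.3e-03), with levels of at most 1.05 CPM in the 8 libraries. H2bfm, a histone H2B variant gene on the X chromosome, had 2 counts in F/F before and 76 in KO after, a CPM ratio of 49.9 (95% counting interval 13.4 to 420.0), and also rose in the wild-type lines from 0.369 and 0.281 CPM to 0.705 and 0.810 CPM. Fndc3c1 had 3 and 48 counts, a ratio of 21.0 (95% counting interval 6.78 to 106), against 0.317 and 0.337 CPM before and 0.393 and 0.385 after in the wild-type lines. Hgf, which encodes hepatocyte growth factor, was at 0.122 and 0.169 CPM in F/F before and 0.364 and 0.585 in KO after, and the wild-type lines fell from 16 counts to 3, a ratio of 0.122 (95% counting interval 0.0228 to 0.426). Hgf lost its call without WT before of line 5.3 at 4.22 (adjusted p = 0.0530), and Slc10a6 (difference of 3.63) was called in 3 of the 8 fits, with an adjusted p = 0.0531 without KO after of line 15.10.

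The two-cell embryo genes turn on when the mouse zygote activates its genome. Of 30 measured, 2 (6.67%), Usp17le and Dux, were called higher and none lower. That share is near the 4.07% called higher among all genes tested. Of 38 members with a row of counts, 30 passed the filter on low counts, which a gene can pass through 1 group alone, so no median of the list is given. The summed level of the list was 1.64 to 2.19 CPM in the 4 libraries before OHT, 4.74 and 2.52 CPM in WT after and 16.2 and 17.5 CPM in KO after, so both KO libraries lay above the other 6. Usp17le, of a multicopy family of deubiquitinases, had 3 counts in F/F before and 104 in KO after, a CPM ratio of 45.6 (95% counting interval 15.2 to 224). In the wild-type lines it went from 0.106 and 0.112 CPM to 0.328 and 0.173 CPM, and the difference was 4.18 ± 0.83 (adjusted p = 6.0e-03). Dux, a multicopy transcription factor that turns on genes of this stage, had 3 and 58 counts, a ratio of 25.4 (95% counting interval 8.27 to 127), against 0.0528 and 0.112 CPM before and 0.0819 and 0.0578 CPM after in the wild-type lines. The difference of 4.75 ± 1.199 (adjusted p = 0.0231) lost its call without KO after of line 15.10 (adjusted p = 0.0513), WT before of line 5.3 (adjusted p = 0.0539) or 5.16 (adjusted p = 0.161) or F/F before of line 16.9 (adjusted p = 0.0676). With the cell line as a block 4 members were higher.

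**Figure D4:**
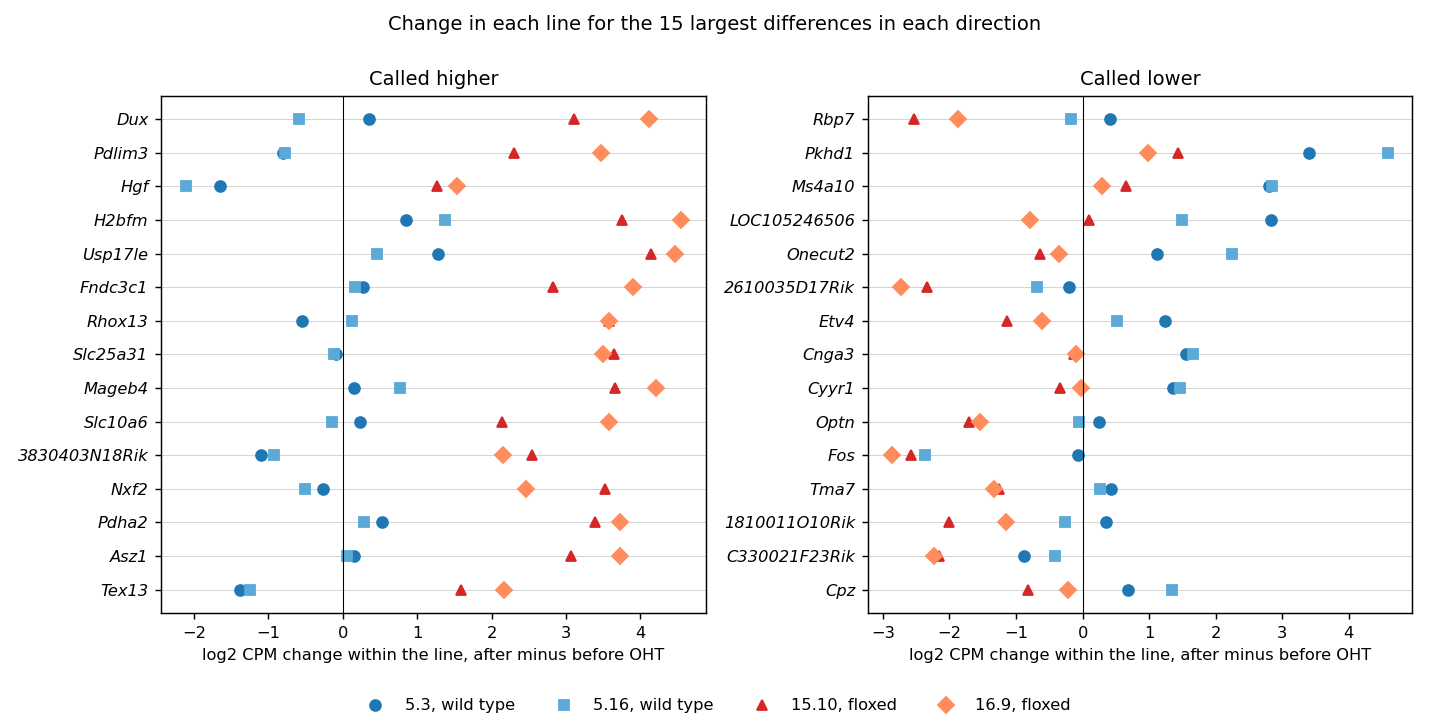
Change in log2 CPM from before to after OHT within each of the 4 lines for 15 genes called higher (left) and 15 called lower (right). They have the largest difference of the differences, sorted by size, among genes that meet 2 conditions. A mean log2 CPM of at least 0 over all 12 libraries leaves out Rhox2f at 6.10 and Rhox4g at 4.49, among others. Line changes that do not overlap between genotypes leave out Egr1 at -2.77. The points of Hgf lie above 0 in both floxed lines and below 0 in both wild-type lines, and those of Optn lie below 0 in both floxed lines.

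The genes called lower changed less, and 8 of the 15 largest were called in all 8 fits. Optn, which encodes the autophagy receptor optineurin, had the smallest adjusted p among them. It fell in the floxed lines from 27.5 and 27.0 CPM to 8.43 and 9.21 CPM and stood at 45.5 and 57.0 CPM before and 53.9 and 55.1 CPM after in the wild-type lines. Both floxed lines were under both wild-type lines at each time, at 53.2% of their mean before and 16.2% after, and the difference was -1.72 ± 0.14 (adjusted p = 1.5e-06). 2610035D17Rik went from 3.40 and 3.16 CPM to 0.628 and 0.431 CPM in the floxed lines and from 1.87 and 1.86 CPM to 1.62 and 1.14 CPM in the wild-type lines (difference of -2.20). C330021F23Rik went from 6.09 and 5.28 CPM to 1.32 and 1.08 CPM against 4.43 and 3.96 CPM to 2.39 and 2.97 CPM (difference of -1.59). In both, the floxed lines were the higher pair before OHT and the lower pair after.

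In others the wild-type lines moved. Pkhd1, the gene of recessive polycystic kidney disease, rose in the wild-type lines from 0.422 and 0.534 CPM to 4.93 and 14.0 CPM and in the floxed lines from 2.62 and 4.05 CPM to 7.18 and 8.04 CPM, a difference of -3.10 ± 0.63 (adjusted p = 6.8e-03). Ms4a10 rose in the wild-type lines from 0.237 and 0.169 CPM to 1.97 and 1.52 CPM and stood at 0.954 and 0.844 CPM before and 1.52 and 1.05 after in the floxed lines (difference of -2.57). Cnga3, a cyclic nucleotide-gated channel subunit, rose from 0.686 and 0.450 CPM to 2.11 and 1.52 CPM in the wild-type lines and was at 13.4 and 10.2 CPM before and 12.2 and 9.55 CPM after in the floxed lines (difference of -1.80). Fos, an immediate early gene, was uneven within WT after, with 76.8 CPM in line 5.3 and 24.5 CPM in line 5.16, against 14.7 and 14.5 CPM in KO after and 80.3 and 126 CPM in WT before and 88.0 and 105 CPM in F/F before. Its difference was -1.71 ± 0.46 (adjusted p = 0.0306) and was called in 3 of the 8 fits, with -0.65 (adjusted p = 0.110) without WT after of line 5.3. It was also lost without KO after of line 15.10 (adjusted p = 0.0896) or 16.9 (adjusted p = 0.101), WT before of line 5.3 (adjusted p = 0.128) and F/F before of line 16.9 (adjusted p = 0.107).

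Replication-dependent histone genes, which are transcribed in S phase, had 9 members (16.7%) called higher of 54 measured and none lower. Over all genes tested 4.07% were higher and 3.79% lower. The median of the list was 0.82, and its level moved with 1 library. The summed level of the list was 3132.9 and 4806.3 CPM in WT after of lines 5.3 and 5.16 and 6467.6 and 7481.3 CPM in KO after, against 4465.8 to 5670.5 CPM in the 4 libraries before OHT. Line 5.3 after OHT was the lowest of the 8. Without it the median was 0.38 and 7 were called. Without WT after of line 5.16, which leaves line 5.3 alone in that group, 47 were called, and with the cell line as a block 34 were. Without KO after of line 16.9 and WT before of line 5.16 the counts were 4 and 5. Hist1h1e, a linker histone gene, was called in all 8 fits. It rose from 136 and 133 CPM to 251 and 275 CPM in the floxed lines and went from 182 and 191 CPM to 202 and 235 CPM in the wild-type lines, a difference of 0.75 ± 0.10 (adjusted p = 3.5e-04). Hist1h2aa, a histone gene of the testis, rose from 0.782 and 0.603 CPM to 4.00 and 5.15 CPM in the floxed lines and stood at 3.24 and 3.68 CPM before and 3.64 and 4.80 CPM after in the wild-type lines (difference of 2.44). Hist2h2bb differed by 0.53 ± 0.10 (adjusted p = 5.3e-03). What part the library of line 5.3 has in the count was not tested beyond leaving it out.

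Lists of repressive chromatin come next, and H3K9 methylation is the mark that HP1 binds and that KAP1 brings about through SETDB1. Of 35 measured genes of H3K9 methylation, HP1 and KAP1 silencing, 7 were lower and 1 higher, with a median of -0.18, and the number lower was 2 without WT before of line 5.3, 3 without KO after or F/F before of line 16.9, and 4 without WT after of line 5.3 or KO after of line 15.10. Rif1 is 1 of the 7, which are 20.0% of those measured, against 3.79% called lower among all genes tested. The 1 called higher is 2.86%, against 4.07%. Before OHT 5 of the 7 called lower had been higher in the floxed than in the wild-type lines and 1 had been lower. After OHT 3 of the 7 were lower than in the wild-type lines and none was higher. Cbx5, which encodes HP1 alpha, went from 838 and 866 CPM to 704 and 680.1 CPM in the floxed lines and from 539 and 589 CPM to 692 and 612 CPM in the wild-type lines, a difference of -0.51 ± 0.10 (adjusted p = 7.1e-03) that was called in all 8 fits. Zfp932, a KRAB zinc finger gene, rose in the wild-type lines from 5.49 and 7.03 CPM to 12.5 and 12.8 CPM and stood at 8.85 and 9.31 before and 10.7 and 9.83 CPM after in the floxed lines. It differed by -0.84 ± 0.18 (adjusted p = 8.3e-03) and by -0.67 (adjusted p = 0.0529) without WT before of line 5.3. The member higher was Zfp42, which encodes the pluripotency factor REX1, at 137 and 172 CPM in F/F before and 316 and 304 in KO after against 85.3 and 92.3 CPM before and 125 and 123 CPM after in the wild-type lines. Its difference was 0.52 ± 0.12 (adjusted p = 0.0126), and 0.49 (adjusted p = 0.0621) without KO after of line 15.10.

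Of 24 measured DNA methylation and demethylation genes 3 (12.5%) were lower and 1 (4.17%) higher, against 3.79% and 4.07% of all genes tested. The methyltransferase gene Dnmt3b rose in both genotypes and less in the floxed lines, from 64.9 and 75.2 CPM to 102 and 95.8 CPM against 78.9 and 79.0 CPM to 154 and 145 CPM. Its difference of -0.42 ± 0.10 (adjusted p = 0.0177) lost its call without WT after of line 5.3 (adjusted p = 0.0618), KO after of line 16.9 (adjusted p = 0.0982), WT before of line 5.3 (adjusted p = 0.0669) and F/F before of line 16.9 (adjusted p = 0.0830). None of the list was called lower without any 1 of those 4 libraries, and 6 were without WT after of line 5.16. Of 39 Polycomb genes 4 (10.3%) were lower and 1 (2.56%), Scml2, higher, and the median was 0.04. With upper-quartile scaling the split turned, with 1 lower and 3 higher, and 0 or 1 were lower without WT after of line 5.3, either KO after library or WT before of line 5.3. Pcgf6, of the variant Polycomb complex named above, stood at 91.4 and 98.9 CPM in F/F before and 84.4 and 81.4 in KO after, and at 94.8 and 99.7 CPM before and 111 and 106 CPM after in the wild-type lines. Its difference was -0.36 ± 0.09 (adjusted p = 0.0256), was called in 3 of the 8 fits, and was -0.30 (adjusted p = 0.0579) with upper-quartile scaling.

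Most calls among genes of DNA replication, repair and p53 were lower. Of 41 measured genes of replication licensing and origin firing 6 (14.6%) were lower and none higher, against 3.79% and 4.07% of all genes tested, with a median of -0.11. Of the 6, 4 had been higher in the floxed than in the wild-type lines before OHT, and 2 were lower after it. In the wild-type lines 27 of the 41 rose with OHT and in the floxed lines 16, against 4264 and 3790 of all 17115 genes tested. The number lower was 1 without WT before of line 5.3, KO after of line 15.10 or F/F before of line 16.9, 2 without WT after of line 5.3 or KO after of line 16.9, and 10 without WT after of line 5.16. Gins3, a subunit of the replicative helicase, went from 21.7 and 22.6 CPM to 18.1 and 17.9 CPM in the floxed lines and from 16.9 and 17.3 CPM to 21.9 and 19.7 CPM in the wild-type lines. Its difference of -0.59 ± 0.13 (adjusted p = 9.3e-03) made it the member called in all 8 fits. Of 33 double-strand-break repair genes 3 (9.09%) were lower and 1, Rad50, higher (difference of 0.46). Of 34 p53 targets 3 (8.82%) were lower and none higher. Trp53inp1, a stress-induced p53 target, fell in the floxed lines from 486 and 443 CPM to 284 and 265 CPM and stood at 462 and 456 CPM before and 472 and 437 CPM after in the wild-type lines, a difference of -0.74 ± 0.11 (adjusted p = 4.1e-04) that held in all 8 fits. Mdm2, the p53 ubiquitin ligase, differed by -0.53 ± 0.11 (adjusted p = 9.0e-03), and by -0.50 (adjusted p = 0.0502) without KO after of line 16.9.

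Pluripotency lists had members called in both directions. Of 14 core pluripotency genes 1 was higher and 3 lower, of which none was called in all 8 fits, and of 25 naive genes 5 were higher and 2 lower, with medians of -0.15 and -0.04. Tfcp2l1, a naive pluripotency factor, went from 2455 and 2608 CPM to 2041 and 2167 CPM in the floxed lines and from 1637 and 1749 CPM to 2197 and 1965 CPM in the wild-type lines (difference of -0.56). Tcl1, an AKT coactivator, rose in the floxed lines from 22.3 and 22.4 CPM to 35.1 and 34.8 CPM and stood at 135 and 138 CPM before and 139 and 140.0 CPM after in the wild-type lines (difference of 0.61). Higher and lower counts were 4 and 3 of 21 formative epiblast genes, 3 and 1 of 22 primitive endoderm, 2 and 1 of 17 trophoblast, 1 and 0 of 16 mesendoderm and 2 and 0 of 14 neuroectoderm genes, where the shares over all genes tested were 4.07% and 3.79%. In lists of this size 1 call is 4.55% to 7.14% of the members. Lamb1, a laminin chain of the basement membrane, rose in the floxed lines from 89.4 and 80.7 CPM to 159.6 and 166 CPM, against 179.7 and 138 CPM to 201 and 189 CPM in the wild-type lines, a difference of 0.64 ± 0.13 (adjusted p = 6.8e-03). Gata2, a trophoblast and blood transcription factor, fell in both genotypes and less in the floxed lines, from 53.5 and 47.1 CPM to 14.9 and 17.2 CPM against 49.9 and 46.7 CPM to 7.65 and 9.14 CPM (difference of 0.88).

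Of the signalling lists, MAPK and Wnt had members called in both directions, and Nodal and interferon had higher members only. Over all genes tested 4.07% were higher and 3.79% lower. Of 26 MAPK feedback genes 2 were higher and 5 lower, and of 19 Wnt targets 2 and 2. Of 15 Nodal genes 3 and 0 were, and of 35 interferon and RNA sensing genes 3 and 0. Of the 5 MAPK genes lower 3 fell in the floxed lines, among them Etv4 (difference of -1.94). Dusp4, a MAPK gene called higher, fell in both genotypes and less in the floxed lines (difference of 1.15). Myc, a Wnt target called lower, rose in both genotypes and less in the floxed lines (difference of -1.50). Ccnd1, which encodes cyclin D1 and belongs to the first 2 lists, rose in the floxed lines from 32.8 and 34.8 CPM to 68.7 and 66.8 CPM, and stood at 129 and 119 CPM before and 127 and 137 CPM after in the wild-type lines. It went from 27.4% to 51.3% of the wild-type mean, a difference of 0.91 ± 0.10 (adjusted p = 6.0e-05) that held in all 8 fits. Lefty1, an inhibitor of Nodal, rose in the floxed lines from 15.8 and 23.7 CPM to 56.2 and 68.7 CPM, and went from 19.4 and 20.2 CPM to 23.01 and 34.4 CPM in the wild-type lines. It differed by 1.13 ± 0.24 (adjusted p = 9.3e-03), and by 0.97 (adjusted p = 0.0507) without KO after of line 16.9. Of the 3 interferon and RNA sensing genes called none held in all 8 fits, and 0 were called without KO after of line 15.10 or WT before of line 5.3.

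Of 53 imprinted genes 6 were higher and 3 lower, with 2 higher without WT before of line 5.3 and 3 without KO after or F/F before of line 16.9. The 6 and 3 are 11.3% and 5.66% of those measured, against 4.07% and 3.79% of all genes tested. Ndn, a paternally expressed gene that encodes the MAGE protein necdin, rose in the floxed lines from 17.0 and 17.7 CPM to 47.2 and 47.9 CPM. In the wild-type lines it stood at 16.8 and 16.4 CPM before and 18.1 and 20.6 CPM after. Both KO libraries lay above the other 6, and the difference was 1.23 ± 0.12 (adjusted p = 1.7e-05). Gatm, an enzyme of creatine synthesis that is imprinted in placenta, turned over, from 1.49 and 1.04 CPM to 4.23 and 5.49 CPM in the floxed lines against 4.51 and 3.71 CPM to 2.93 and 2.31 CPM in the wild-type lines (difference of 2.59). Plagl1, a paternally expressed zinc finger gene, fell in the floxed lines from 132 and 139 CPM to 78.7 and 95.9 CPM and was at 61.8 and 66.1 CPM before and 60.6 and 66.5 CPM after in the wild-type lines (difference of -0.63). Among 16 Prame-like genes, a multicopy family, 1 (6.25%) was higher and 2 (12.5%) lower. Pramel1 rose in the floxed lines from 2.13 and 1.06 CPM to 6.18 and 6.16 CPM. In the wild-type lines it was at 11.9 and 11.3 CPM before and 8.62 and 8.81 CPM after (difference of 2.36).

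Feeder fibroblast markers stand for another cell type that such cultures may hold. Of 14 measured 4 were higher and none lower, with 1 higher without WT before of line 5.3 or KO after of line 16.9 and 2 without KO after of line 15.10 or F/F before of line 16.9. The 4 are 28.6% of those measured, where 4.07% were higher and 3.79% lower over all genes tested. The summed level of the list was 95.7 and 120.5 CPM in WT after, 147.3 and 154.1 CPM in KO after and 120.1 to 138.4 CPM before OHT. Thy1, a surface glycoprotein, went from 0.978 and 0.699 CPM to 2.08 and 2.03 CPM in the floxed lines, against 5.70 and 5.26 CPM before and 5.28 and 5.38 CPM after in the wild-type lines, a difference of 1.33 ± 0.26 (adjusted p = 5.7e-03). Col5a1 gave most of the summed CPM, at 68.4 and 94.4 CPM in WT after and 108 and 111 CPM in KO after, and differed by 0.65 ± 0.16 (adjusted p = 0.0175). It was called in 4 of the 8 fits, being lost without KO after of line 15.10 (adjusted p = 0.0502) or 16.9 (adjusted p = 0.0684), WT before of line 5.3 (adjusted p = 0.0748) and F/F before of line 16.9 (adjusted p = 0.0731). Of the markers in all 8 libraries Fbn1 ran from 4.16 to 15.6 CPM, Loxl1 from 2.87 to 5.45, Pdgfrb from 2.51 to 4.03 and Twist1 from 2.16 to 5.06 CPM, while Col3a1, Dcn and Fap were at most 0.0281 CPM. The part of other cells in the differences was not tested. Of 26 cholesterol synthesis genes 2 were higher and none lower, of 26 glycolysis genes 2 and 1, of 25 genes of the unfolded protein and amino-acid stress responses 2 and 3, and of 23 clustered protocadherins none was called.

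**Figure D5:**
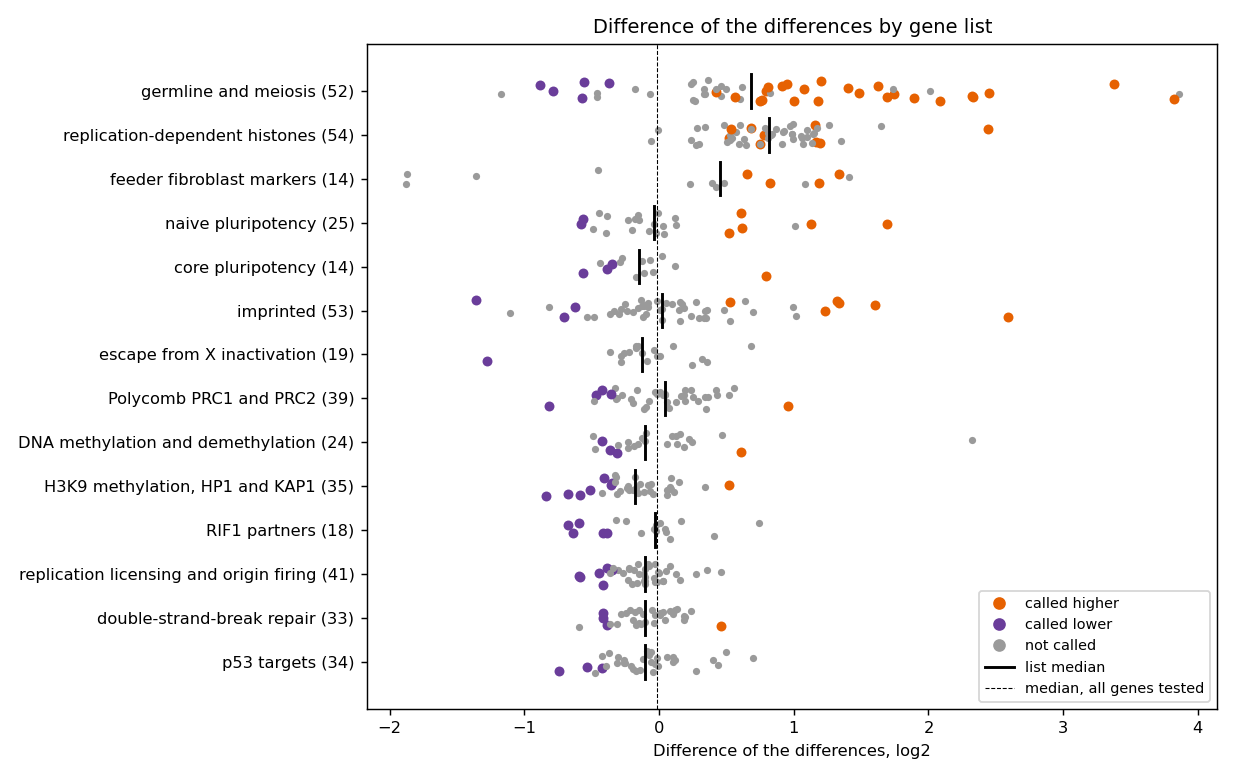
Difference of the differences on the log2 scale for each measured member of 14 gene lists, with the number measured in brackets, a bar at each list's median and a dashed line at the median of all genes tested. The germline, histone and feeder fibroblast lists have medians of 0.68, 0.82 and 0.45, and the histone median was 0.38 without WT after of line 5.3. The lists of repressive chromatin, replication, repair and p53 have medians between -0.18 and 0.04.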

How the data were processed

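The authors deposited 1 table of gene counts for 24391 symbols, whole numbers that are not normalized. Per the submitters' processing notes BWA, HTSeq, DESeq2 and the genome build mm9 were used, with no roles or versions stated. Strand setting and treatment of multi-mapping reads are not given in the sources used here. Of the symbols, 23175 matched a RefSeq symbol, 1096 a synonym and 25 GENCODE, for chromosomes only, and 95 matched nothing.

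Counts of all 12 libraries were fitted in 1 model of 6 groups with edgeR 4.0.16 (R 4.3.3, limma 3.58.1): TMM scaling, edgeR's filter on low counts, the quasi-likelihood F test and Benjamini-Hochberg adjustment over 17115 genes, with calls at an adjusted p under 0.05. The 4 embryoid body libraries are in no group of the contrast, but they entered the estimate of spread, the filter (16338 genes passed with the 8 mESC libraries alone) and the mean log2 CPM of the naming rule. All adjusted p-values are from this test unless another is named. The standard error after ± is the absolute log2 difference over the square root of F. CPM are TMM-adjusted, and changes within a line use log2 CPM with a prior count of 2. Lines, 2 against 2, allow no exact permutation p under 0.333, so no such test is given. Counting intervals and CPM depend on total counts of 29505686 to 64808897 and cover counting error only.

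Named genes were Rif1, Xist and Tsix, the 15 largest calls in each direction with log2 CPM averaging at least 0 and line changes that did not overlap, and up to 3 members called per list by smallest adjusted p. Others were chosen after their values were seen. The contrast and gene lists were chosen with earlier results of these data known. Promoters came from RefSeq's GRCm38.p6 table by symbol (12616 of 17115), 1 entry per gene, whereas the counts used mm9. Replicate numbers name the cell line before and after OHT, so they pair libraries. The correlation of line deviations before and after OHT was -0.07 in wild-type and 0.09 in floxed lines over 17115 genes. Alternatives were other scalings, filters, DESeq2 1.42.0, the cell line as a block, the 8 mESC libraries alone, and each library left out.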

Additional observations from a re-analysis of the deposited data

Results flagged for a closer look

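For 41 of the 100 named genes that were called, both lines of one genotype had a change in log2 CPM above 0 with OHT and both lines of the other a change below 0. Named genes were chosen through the contrast, which tests whether the changes differ and not whether they have opposite signs. Beside each gene below stands its difference of the differences, and the genes are grouped by whether the change within each genotype passed edgeR's test.

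In 18 of the 41 both changes passed. Of these 10 rose in the floxed lines and fell in the wild-type lines: Hgf (4.59), 3830403N18Rik (3.57), Tex13 (3.37), Gatm (2.59), Pramel1 (2.36), Rhox1 (2.26), Sox3 (1.85), Sox4 (0.91), Stard4 (0.85) and Rad50 (0.46). The other 8 fell in the floxed lines and rose in the wild-type lines: Etv4 (-1.94), Gins3 (-0.59), Tfcp2l1 (-0.56), Lama1 (-0.53), Cbx5 (-0.51), Apaf1 (-0.43), Atf4 (-0.39) and Pcgf6 (-0.36). 3830403N18Rik, an X-linked gene, changed by -1.10 and -0.93 in the wild-type lines and by 2.55 and 2.16 in the floxed lines. Etv4, an ETS factor downstream of FGF and ERK signalling, changed by 1.24 and 0.52 in the wild-type lines and by -1.14 and -0.60 in the floxed lines.

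In 8 of the 41 the change passed in the floxed lines alone. Pdlim3 (4.72), Rhox4g (4.49), Slc25a31 (3.82), Nxf2 (3.43) and Oasl2 (3.25) rose there, and Tma7 (-1.67), Lin28a (-0.56) and Blm (-0.41) fell. The wild-type changes of Slc25a31, which did not pass, were -0.09 and -0.11. In 15 the change passed in the wild-type lines alone. Twist1 (1.19), Scml2 (0.96) and Col5a1 (0.65) fell there. Onecut2 (-2.28), Cnga3 (-1.80), Cyyr1 (-1.73), Cpz (-1.55), Xist (-1.28), Mdm2 (-0.53), Eed (-0.47), Prkdc (-0.41), Zfp281 (-0.39), Xbp1 (-0.37), Uhrf1 (-0.36) and Pdk1 (-0.33) rose.

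Of the 41, 20 were called in all 8 fits without 1 library. Without KO after of line 15.10 or 16.9, 15 each lost their call. Without WT before of line 5.3 it was 14, without F/F before of line 16.9 it was 12, and without WT after of line 5.3 it was 9. Without WT before of line 5.16 or F/F before of line 15.10, 3 each lost it. With the cell line as a replicate block Cyyr1 was -1.72 (adjusted p = 0.0501). Etv4 lost its call without KO after of line 16.9 (adjusted p = 0.0692) and F/F before of line 15.10 (adjusted p = 0.0703). Oasl2, an interferon-induced gene, had an adjusted p = 0.0678 without KO after of line 15.10, and Twist1, a mesenchymal transcription factor, an adjusted p = 0.0531 without KO after of line 16.9.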

How the results depend on the processing

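Of 1346 calls, 366 were made in all 8 fits without 1 library, and all 366 also with the cell line as a replicate block. Leaving out 1 library gave 510 to 2540 genes called, 312 to 1362 higher and 198 to 1178 lower. Without the filter on low counts the numbers were 2218, 1125 and 1093, with the 8 mESC libraries alone 705, 445 and 260, and with a threshold of 2-fold 409, 364 and 45. Upper-quartile scaling gave 357 lower. RLE scaling, DESeq2, a filter of 1 CPM in 2 libraries and robust empirical Bayes kept all 3 counts within 1.5 times. The replicate block gave 1300 genes called, 733 higher and 567 lower, and with the 8 mESC libraries alone 516, 375 and 141. Pairing by cell line ended the calls of Cyyr1 (adjusted p = 0.0501), Dnmt3l (adjusted p = 0.0636) and Pdk1 (adjusted p = 0.0577) among named genes. Among calls higher it moved histones to 34, two-cell genes to 4, Prame-like genes to 2 and stress response genes to 1. RIF1 partners and replication genes called higher went from 0 to 1 each. Among calls lower it moved glycolysis genes to 0. No named gene that was called turned its direction in any setting where it was tested. Among values of named genes other than Rif1, 294 no longer passed the threshold. Among counts of calls in lists and on the X chromosome, 329 differed by more than 1.5 times or went to or from 0. The other 2161 values were genes whose call status stayed the same or counts that stayed within 1.5 times. The causes were not tested.

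Each group held 2 libraries, so 1 library can decide a call, and single calls of small size rest on the spread borrowed across genes. Where the pairs of lines respond to OHT differently for reasons unrelated to Rif1, that and the deletion cannot be told apart. Genes with few counts before OHT have wide intervals, so the lack of a call there does not show that the genotypes changed alike.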
